A study of Mus musculus with 9 samples.

Results

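Sema7a, Abcd2, Shh, Itga7, Flywch2 and Rasd2 are 6 genes of cultured mouse cortical neurons, picked from the 24054 rows of a table of RNA levels because their values were higher with thyroid hormone and lay on whole reads in every library. The choice rested on the difference between hypoxia with T3 and hypoxia, so that difference is described here and carries no test. High T3 values helped to choose the genes, so their p-values for T3 against normoxia are descriptions too. All 6 were among the 12923 genes that passed the filter on low values, which was more than 1 CPM in at least 3 libraries, where CPM is the authors' TMM-normalized count relative to library size. Itga7 passed this filter only through its T3 libraries.

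The neurons were primary cells of wild-type C57BL/6 brain, kept for 6 days in Neurobasal medium with B27, a supplement whose usual formulation itself contains T3, and 9 libraries were made from their polyadenylated RNA. The 3 hypoxia with T3 libraries came from neurons held in 0.2% oxygen for 7 hours in medium with 10 nM triiodothyronine (T3), the 3 hypoxia libraries from neurons held in the same gas without T3, and the 3 normoxia libraries from control neurons. No library had T3 in normoxia, so differences of T3 against normoxia hold hypoxia and T3 together. Libraries carry the numbers of their column headers, 11 to 13 for hypoxia with T3, 7 to 9 for hypoxia and 1 to 3 for normoxia. The labels do not say whether libraries of 1 group came from separate cultures, so p-values measure only how far these libraries differ among themselves, and that may be technical.

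T3 is the active thyroid hormone. It binds nuclear receptors that sit on DNA near their target genes, often at pairs of a hexamer of the AGGTCA type, and in neurons it raises genes of maturation, axons and metabolism. The 6 genes do different work. Sema7a encodes a membrane-anchored semaphorin that acts on axons through integrins with the beta 1 subunit and also binds plexin C1. Shh encodes the secreted morphogen sonic hedgehog, which binds the receptor Ptch1 and so releases Smo to act on the Gli factors. Itga7 encodes an integrin alpha subunit that pairs with beta 1 and binds laminin. Abcd2 encodes a transporter of very long chain acyl-CoA into peroxisomes. Rasd2, also called Rhes, encodes a small GTPase most abundant in the striatum. Flywch2 belongs to a small family named for the FLYWCH zinc finger, and little is known of its function.

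In GRCm38 the genes lie on 6 chromosomes: Sema7a at chr9:57940112-57962865 on the plus strand, Abcd2 at chr15:91145871-91191799 on the minus strand, Shh at chr5:28456815-28467256 on the minus strand, Itga7 at chr10:128933818-128958282 on the plus strand, Flywch2 at chr17:23776916-23786081 on the minus strand and Rasd2 at chr8:75213944-75224113 on the plus strand. RefSeq promoter windows of the GRCm38.p6 build, from 250 bases before to 50 bases after the start, were found for 3 of the 6 genes. They are shown because the 6 genes were chosen for their response to T3, whose receptors bind hexamers of the AGGTCA type. The windows are written 5′ to 3′ on the gene's strand, and the capitals mark the hexamer GGGTCA, or TGACCC where it lies on the other strand.
Sema7a promoter, chr9:57939862-57940161, plus strand: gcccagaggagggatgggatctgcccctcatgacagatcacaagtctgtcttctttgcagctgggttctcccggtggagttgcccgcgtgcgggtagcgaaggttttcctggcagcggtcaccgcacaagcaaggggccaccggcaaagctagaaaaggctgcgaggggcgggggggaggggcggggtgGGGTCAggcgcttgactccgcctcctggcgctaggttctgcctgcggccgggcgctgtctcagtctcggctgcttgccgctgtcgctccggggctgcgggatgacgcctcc
Flywch2 promoter, chr17:23786032-23786331, minus strand: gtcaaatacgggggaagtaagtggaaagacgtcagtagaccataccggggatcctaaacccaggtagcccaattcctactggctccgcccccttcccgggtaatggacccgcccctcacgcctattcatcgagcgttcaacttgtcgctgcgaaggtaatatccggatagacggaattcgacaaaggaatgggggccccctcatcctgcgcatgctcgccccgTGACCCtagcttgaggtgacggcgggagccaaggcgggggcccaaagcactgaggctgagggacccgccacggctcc
Rasd2 promoter, chr8:75213694-75213993, plus strand: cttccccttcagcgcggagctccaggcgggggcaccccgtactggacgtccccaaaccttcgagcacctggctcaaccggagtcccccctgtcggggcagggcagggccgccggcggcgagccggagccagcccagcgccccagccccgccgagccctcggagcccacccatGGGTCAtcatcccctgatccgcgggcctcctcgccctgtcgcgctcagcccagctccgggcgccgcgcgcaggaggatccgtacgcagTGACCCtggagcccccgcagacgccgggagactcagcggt

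The hexamer AGGTCA, the hexamer GGGTCA and the DR4 element, which is AGGTCA repeated in the same direction after 4 other bases, were searched on both strands of these windows, and matches could overlap. The Sema7a window held GGGTCA once, at position -61 from the start on the gene's strand. The Flywch2 window held it once, at -27 on the other strand. Rasd2 had 2 matches, at -78 on its own strand and at 11 on the other strand. None of the 3 windows held AGGTCA or DR4. Of 27025 promoter windows of the same length, 13.5% held GGGTCA, 16% held AGGTCA, 27.2% held at least 1 of the 2 hexamers and 0.0111% held DR4. A hexamer of this kind is common, and a match is a description of the letters and not of receptor binding.

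Depth was 17182338 reads in hypoxia 7, the shallowest library, and 33937842 reads in normoxia 2, the deepest, as recovered from the step between neighbouring low values. With 1 read worth 0.0302 to 0.0565 CPM, the members rested on 5 to 5084 reads in a library, and all of their 9 values were whole reads. Counting intervals given with the values are exact 95% Poisson intervals and cover counting error only. In these bulk libraries, fewer cells of a type and less RNA per cell cannot be told apart. Summed over the marker lists, neuronal markers were at 4885 to 4952 CPM in hypoxia with T3, 4979 to 5488 CPM in hypoxia and 6568 to 7052 CPM in normoxia. Tubb3 alone was at 563 to 838 CPM with T3, 922 to 1357 CPM in hypoxia and 2262 to 2578 CPM in normoxia, and without it the neuronal sums were 4069 to 4389 CPM with T3, 3946 to 4270 CPM in hypoxia and 4290 to 4580 CPM in normoxia. Astrocyte markers summed to 477 to 628 CPM in hypoxia with T3, 379 to 622 CPM in hypoxia and 311 to 419 CPM in normoxia. Microglial markers summed to at most 1.53 CPM in any library. Among them Tmem119 was at 0 in 8 libraries and at 0.03 CPM in normoxia 2, while Cx3cr1 ran from 0.167 CPM in normoxia 1 to 0.609 CPM in hypoxia 9.

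**Figure D1:**
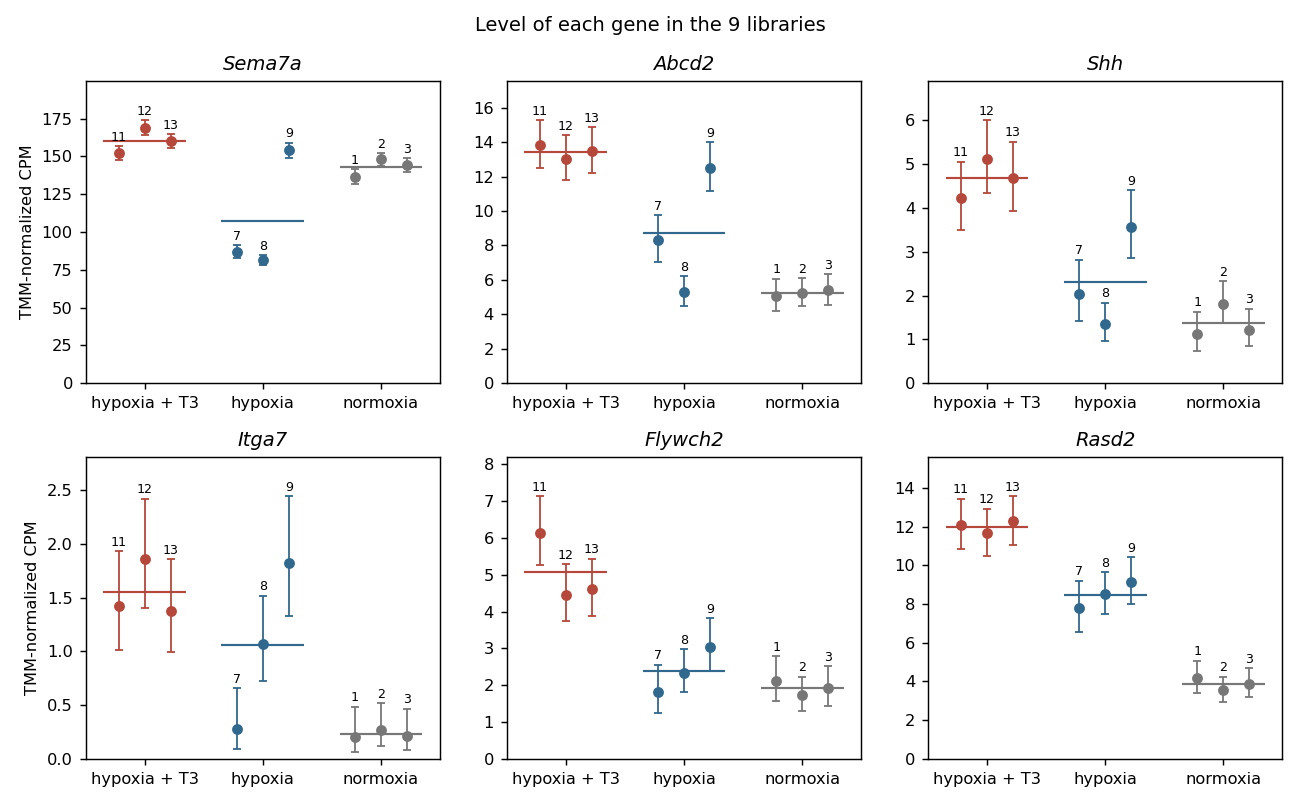
Level of each of the 6 genes, in TMM-normalized CPM on linear axes from 0, in the 9 libraries. Points are libraries with their number, bars are exact 95% Poisson intervals from the recovered reads, and lines are group means of 3 libraries. For every gene hypoxia 9 is the highest hypoxia library, and for Sema7a it stands at 154 CPM against 86.8 and 81.3 CPM in hypoxia 7 and 8.

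Sema7a was by far the most abundant of the 6. It had 152, 169 and 160.2 CPM in T3 libraries 11, 12 and 13, against 86.8, 81.3 and 154 CPM in hypoxia 7, 8 and 9, and 137, 148 and 144 CPM in normoxia 1, 2 and 3. Hypoxia 7 and 8 lay well below all other libraries, while hypoxia 9 lay within the range of the T3 libraries and above all 3 normoxia libraries. Means were 161 ± 8.41 CPM with T3, 107 ± 40.5 CPM in hypoxia and 143 ± 5.75 CPM in normoxia (SD, n = 3 each), so the hypoxia mean is a level that none of its own libraries had. The log2 difference between T3 and hypoxia was 0.64 (SE 0.18), and 0.93 without hypoxia 9.

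Against normoxia, Sema7a behaved differently from the other members. It was the only one of the 6 with a negative difference in hypoxia, at -0.47 (SE 0.18), which did not pass the test (limma adjusted p = 0.0671). Without hypoxia 9 the difference was -0.76 (SE 0.06) and passed it (limma adjusted p = 9.71e-05). That fit leaves only hypoxia 7 and 8, whose low values are part of what chose the gene, so its p is a description. With T3 the gene stood 0.17 (SE 0.18) above normoxia, which did not pass (limma adjusted p = 0.463), although the 3 T3 libraries all lay above the 3 normoxia libraries. Without hypoxia 9 the same 0.17 had an SE of 0.06 and passed (limma adjusted p = 0.0326). Here the library that stood apart from its group was dropped, and the T3 libraries also entered the choice of the gene.

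Shh was a low but countable transcript, with 119, 154 and 143 reads in T3 libraries 11, 12 and 13. Its level was 4.23, 5.12 and 4.68 CPM there, against 2.03, 1.34 and 3.57 CPM in hypoxia 7, 8 and 9, and 1.12, 1.81 and 1.21 CPM in normoxia 1, 2 and 3. The T3 libraries lay above all others, hypoxia 9 stood between them and the rest, and hypoxia 8 lay among the normoxia libraries. The interval of hypoxia 9, 2.87 to 4.40 CPM, overlapped that of T3 11, 3.50 to 5.06 CPM, and did not reach that of hypoxia 7, 1.42 to 2.82 CPM, or hypoxia 8, 0.956 to 1.84 CPM.

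Shh means were 4.68 ± 0.448 CPM with T3, 2.32 ± 1.14 CPM in hypoxia and 1.38 ± 0.374 CPM in normoxia (SD, n = 3 each). The log2 difference between T3 and hypoxia was 0.83 (SE 0.22), and 1.09 without hypoxia 9. With T3 the gene rose by 1.26 (SE 0.22) over normoxia (limma adjusted p = 0.000561), and it passed this test also when any 1 library was left out. Its high T3 values helped to choose it, so passing was in part set in advance in each of these fits. In hypoxia alone the difference from normoxia was 0.43 (SE 0.22) and did not pass (limma adjusted p = 0.143). It was 0.66 and passed without hypoxia 8 (limma adjusted p = 0.033), and was 0.17 without hypoxia 9 (limma adjusted p = 0.499).

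Itga7 had the fewest reads of the 6, with 40, 56 and 42 in T3 libraries 11, 12 and 13, against 5, 31 and 45 in hypoxia 7, 8 and 9, and 5, 9 and 6 in normoxia 1, 2 and 3. As levels these were 1.42, 1.86 and 1.37 CPM with T3, against 0.283, 1.07 and 1.83 CPM in hypoxia, and 0.208, 0.272 and 0.214 CPM in normoxia. The 3 hypoxia libraries spread over the whole span between the other groups: hypoxia 7 lay just above the normoxia libraries, hypoxia 9 among the T3 libraries, and hypoxia 8 between. The counting interval of hypoxia 7, 0.0917 to 0.659 CPM, did not reach that of hypoxia 8, 0.726 to 1.52 CPM, whereas that of hypoxia 9, 1.33 to 2.44 CPM, overlapped it.

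The coefficient of variation of Itga7 was 72.9% over the hypoxia libraries and 17.4% over the T3 libraries. Means were 1.55 ± 0.270 CPM with T3, 1.06 ± 0.772 CPM in hypoxia and 0.231 ± 0.0351 CPM in normoxia (SD, n = 3 each). The log2 difference between T3 and hypoxia, on the log2(CPM + 1) scale that understates changes of low genes, was 0.38 (SE 0.24). It was 0.64 without hypoxia 9 and 0.07 without hypoxia 7. Itga7 rose by 1.05 (SE 0.24) over normoxia with T3 (limma adjusted p = 0.00333). The T3 libraries brought it past the filter on low values and helped to choose it, so this p is a description. In hypoxia it rose by 0.67 (SE 0.24) over normoxia, close to the threshold (limma adjusted p = 0.0498), and no longer passed when any of 8 libraries was left out, with adjusted p from 0.0598 without T3 13 to 0.183 without hypoxia 9. On recovered reads, without the added 1 CPM, edgeR gave larger log2 fold changes over normoxia. These were 2.22 in hypoxia (edgeR adjusted p = 0.0103) and 2.72 with T3 (edgeR adjusted p = 0.00107).

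Abcd2 was at nearly 1 level within each group except hypoxia. It had 13.8, 13.04 and 13.5 CPM in T3 libraries 11, 12 and 13, against 8.31, 5.31 and 12.5 CPM in hypoxia 7, 8 and 9, and 5.08, 5.26 and 5.40 CPM in normoxia 1, 2 and 3. Hypoxia 9 lay just under the lowest T3 library, hypoxia 8 lay among the normoxia libraries, and hypoxia 7 stood between. The coefficient of variation was 2.91% over the T3 libraries and 41.5% over the hypoxia libraries.

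Abcd2 means were 13.5 ± 0.392 CPM with T3, 8.71 ± 3.61 CPM in hypoxia and 5.24 ± 0.159 CPM in normoxia (SD, n = 3 each). The log2 difference between T3 and hypoxia was 0.64 (SE 0.21), and ranged from 0.37 without hypoxia 8 to 0.92 without hypoxia 9. Abcd2 rose by 1.21 (SE 0.21) over normoxia with T3 (limma adjusted p = 0.000577). In hypoxia the difference of 0.57 (SE 0.21) from normoxia missed the threshold (limma adjusted p = 0.0554). The same difference was 0.30 without hypoxia 9 (limma adjusted p = 0.18), and 0.84 without hypoxia 8, where it passed (limma adjusted p = 0.00291). With columns scaled to equal sums it passed at 0.69 (limma adjusted p = 0.0273), and on recovered reads it passed at 0.74 with edgeR (adjusted p = 0.0357).

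Rasd2 was the member whose 3 groups stood apart in steps. It had 12.1, 11.6 and 12.3 CPM in T3 libraries 11, 12 and 13, against 7.80, 8.52 and 9.14 CPM in hypoxia 7, 8 and 9, and 4.16, 3.53 and 3.89 CPM in normoxia 1, 2 and 3. No library of a group overlapped another group, and hypoxia 9 was the highest hypoxia library by a small margin. Means were 11.996 ± 0.319 CPM with T3, 8.48 ± 0.669 CPM in hypoxia and 3.86 ± 0.315 CPM in normoxia (SD, n = 3 each). The log2 difference between T3 and hypoxia was 0.46 (SE 0.10), and 0.51 without hypoxia 9.

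Rasd2 rose by 0.96 (SE 0.10) in hypoxia over normoxia (limma adjusted p = 9.27e-05) and by 1.42 (SE 0.10) with T3 over normoxia (limma adjusted p = 2.02e-06). Leaving out any 1 library kept the hypoxia difference between 0.91 and 1.02, past the threshold each time. Hypoxia 9 weighed less on this gene than on the other members: without it the rise in hypoxia was 0.91 (limma adjusted p = 0.000645).

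Flywch2 had 6.15, 4.46 and 4.61 CPM in T3 libraries 11, 12 and 13, against 1.81, 2.35 and 3.05 CPM in hypoxia 7, 8 and 9, and 2.12, 1.72 and 1.93 CPM in normoxia 1, 2 and 3. The T3 libraries lay above all others, with T3 11 the highest, and the hypoxia and normoxia libraries overlapped. Means were 5.07 ± 0.933 CPM with T3, 2.40 ± 0.620 CPM in hypoxia and 1.92 ± 0.201 CPM in normoxia (SD, n = 3 each). The log2 difference between T3 and hypoxia was 0.84 (SE 0.16), and 0.98 without hypoxia 9. Flywch2 rose by 1.05 (SE 0.16) over normoxia with T3 (limma adjusted p = 0.000266). In hypoxia alone its difference from normoxia was 0.20 (SE 0.16) and did not pass (limma adjusted p = 0.345). This value was 0.07 without hypoxia 9.

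Per kilobase of exon, Sema7a had 48.7 CPM with T3, 32.6 in hypoxia and 43.4 in normoxia, far above the other members. Flywch2 followed with T3 at 5.09 CPM per kilobase, then Rasd2 at 3.78, Abcd2 at 2.26, Shh at 1.64 and Itga7 at 0.192. In normoxia the order of Flywch2, Rasd2, Abcd2, Shh and Itga7 was the same, at 1.93, 1.22, 0.882, 0.486 and 0.0286 CPM per kilobase. In hypoxia Rasd2, at 2.67 CPM per kilobase, stood above Flywch2, at 2.41. Exon lengths are the union over annotated transcripts, so a gene that uses 1 short transcript has a lower value here than it would per transcript.

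**Figure D2:**
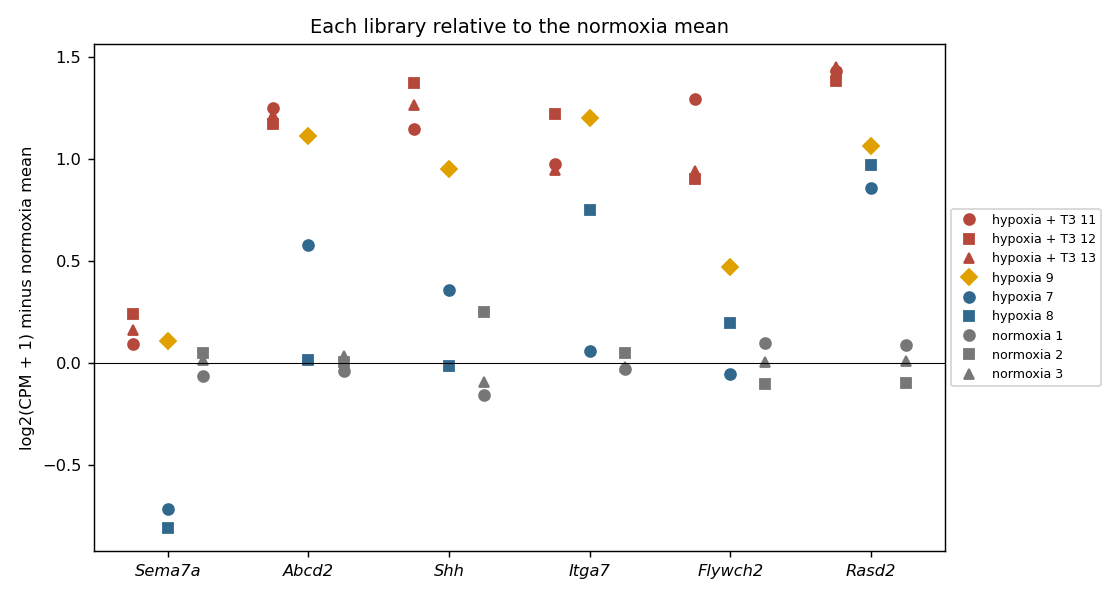
Level of each gene in each library as log2(CPM + 1) minus the mean of the 3 normoxia libraries, with hypoxia with T3, hypoxia and normoxia from left to right within a gene. Each point is 1 library and hypoxia 9 is the diamond. Hypoxia 9 is at 1.11 for Abcd2, 1.199 for Itga7 and 0.11 for Sema7a, close to the T3 points, and at 0.47 for Flywch2, nearer to hypoxia 7 and 8.

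Over the 6 members, the T3 libraries lay above all 3 hypoxia libraries in 4, which were Shh, Abcd2, Rasd2 and Flywch2; of all tested genes 15.8% did so, and since the rule used this difference nothing is read from the count. Set against hypoxia 7 and 8 alone, the T3 libraries lay higher in 6 of 6 members and in 22.7% of tested genes, and this too rests on libraries that chose them. The hypoxia and T3 libraries also entered that choice in the tests against normoxia. Picking high T3 values favours a rise with T3 there, and Itga7 passed the filter only through its T3 libraries. In those tests 5 of 6 members rose with T3, beside 25.5% of tested genes that rose and 29.5% that fell, and Sema7a did not pass. The T3 libraries lay above all normoxia libraries in 6 of 6 members and in 29.8% of tested genes. In hypoxia 2 of 6 rose, Rasd2 and Itga7, beside 14.3% of tested genes, and none fell, beside 19.3%. The same 2 were the members whose hypoxia libraries all lay above the normoxia libraries, which 20.7% of tested genes did. Without hypoxia 9, Rasd2 rose and Sema7a fell, beside 9.06% and 13.8% of tested genes. Scaling all columns to equal sums moved the median of all genes to 0.13 in hypoxia against normoxia and 0.10 with T3 against normoxia, and changed no direction of a member.

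**Figure D3:**
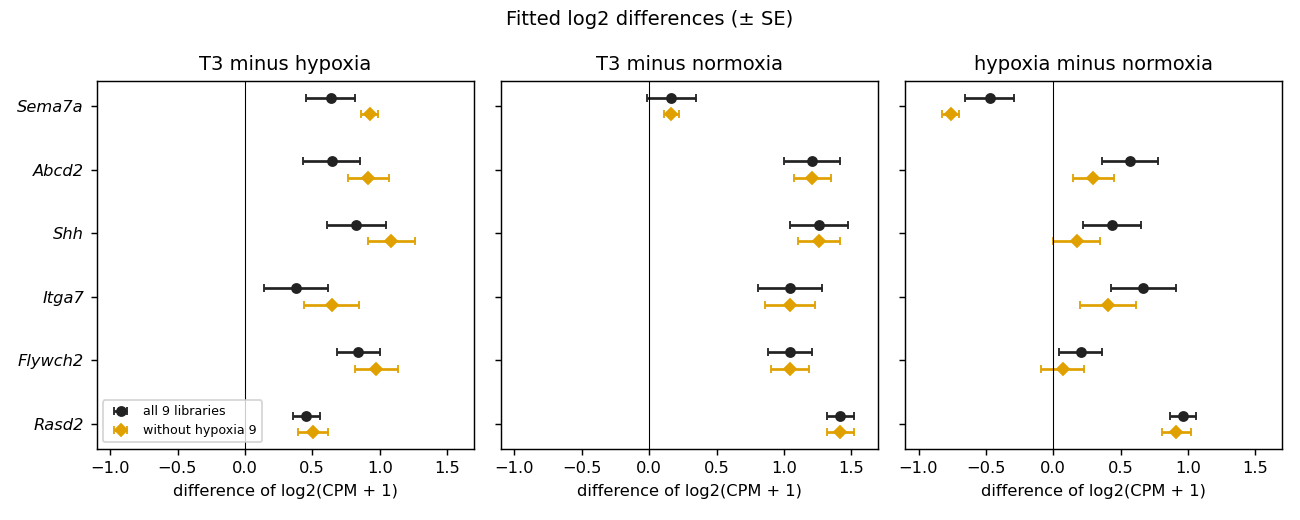
Fitted difference of log2(CPM + 1) for each gene in the 3 comparisons, T3 minus hypoxia, T3 minus normoxia and hypoxia minus normoxia. Points are differences and bars are their SE, from all 9 libraries (circles) or without hypoxia 9 (diamonds). Without hypoxia 9 the T3 minus hypoxia difference is larger for all 6 genes, 0.93 in place of 0.64 for Sema7a, and the hypoxia minus normoxia difference is lower for all 6.

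Hypoxia 9 had the highest level of the 3 hypoxia libraries for 6 of 6 members, where 35.4% of all tested genes had their highest hypoxia value in it. The members were picked as higher with T3, so all tested genes are not a like set and nothing is read from this count. Genes with an upward gap to T3 are set beside the members below. The place of hypoxia 9 was measured as a position on the log2(CPM + 1) scale. It is 0 at the mean of hypoxia 7 and 8 and 1 at the mean of the T3 libraries. Hypoxia 7 and 8 set both the zero point and the gap, so the measure describes 1 library and carries no test. The members' positions spread widely around a median of 0.80.

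Itga7 had the highest position, 1.24 ± 0.262 (SD over the 3 T3 libraries), past the T3 mean. Sema7a followed at 0.94 ± 0.0764 and Abcd2 at 0.89 ± 0.0387, both close to the T3 mean. Shh stood at 0.72 ± 0.0765. These 4 were past the midpoint, whereas Flywch2 at 0.41 ± 0.0827 and Rasd2 at 0.29 ± 0.0212 were nearer to hypoxia 7 and 8. Each SD leaves out the spread of hypoxia 7 and 8 and the counting error of hypoxia 9, so near positions are not resolved. For Flywch2 the counting interval of hypoxia 9 was 2.40 to 3.82 CPM. It overlapped that of hypoxia 8, 1.82 to 2.97 CPM, and that of T3 12, 3.74 to 5.28 CPM. As measured, 4 of 6 members were past the midpoint, beside 57.2% of the 883 tested genes that had whole reads and a T3 mean at least 0.3 above hypoxia 7 and 8. In these 883 genes the median position was 0.58 and the middle 50% ran from 0.28 to 1.11, a span that holds 5 of the 6 members. In the 1489 genes with an equal gap downward the median position was 0.37, and 33.4% were past the midpoint.

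The same measure was taken with hypoxia 7 or hypoxia 8 in the place of hypoxia 9. Hypoxia 9, the highest hypoxia library for all 6 members, then entered the zero point. Low positions of the members were thus in part set in advance, and nothing about hypoxia 9 is read from them. For hypoxia 7, Itga7 was left out because its gap is close to 0. Of the other 5 members 0 were past the midpoint, with a median of -0.39, beside 18.6% of 489 tested genes with an upward gap, whose median was 0.10. For hypoxia 8, 0 of 6 members were past it, with a median of -0.55, beside 29.0% of 518 tested genes, whose median was 0.03.

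**Figure D4:**
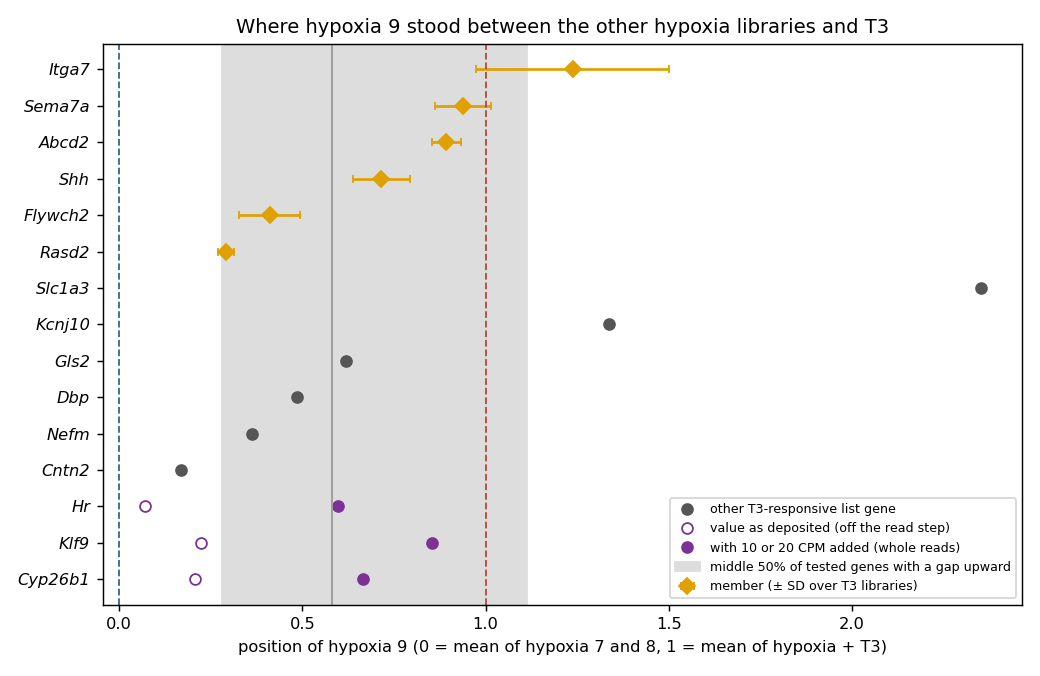
Position of hypoxia 9 between the mean of hypoxia 7 and 8 (0, dashed) and the mean of the T3 libraries (1, dashed) on the log2(CPM + 1) scale. Diamonds are the 6 members with the SD over the 3 T3 libraries, dark points are other genes of the T3-responsive list, open and filled circles are 3 genes as deposited and with 10 or 20 CPM added, and the grey band and line are the middle 50% and median of 883 genes with an upward gap. Members run from 0.29 for Rasd2 to 1.24 for Itga7. The SD leaves out the spread of hypoxia 7 and 8 and the counting error of hypoxia 9.

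Markers of other cells moved with hypoxia 9 as well. All 10 astrocyte markers had their highest hypoxia value in it, with a sum of 622 CPM in hypoxia 9 against 379 and 479 CPM in hypoxia 7 and 8, and 477 to 628 CPM in the T3 libraries. The progenitor list summed to 88.7 CPM in hypoxia 9 against 30.0 and 74.7 CPM in hypoxia 7 and 8, with 46.4 to 75.4 CPM with T3, and the oligodendrocyte lineage list to 187 CPM against 53.9 and 167 CPM, with 107 to 163 CPM with T3. None of the 6 neuronal markers was highest in hypoxia 9, and the vessel and fibroblast list was lowest there, at 20.2 CPM against 26.2 and 29.5 CPM. The part of these lists in the members' values was not tested.

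Of 34 other listed genes known to respond to thyroid hormone, 28 were tested. The list was chosen with earlier results of these data known, so its counts are a description and no independent support. With T3 against hypoxia 6 rose and none fell, beside 2.73% and 3.75% of all tested genes. The median log2 difference was 0.09 over the 28 and -0.01 over all genes. Of those that rose, 3 have a hypoxia 9 value that is not a whole number of reads, as described below. Calls in this comparison vary with single libraries, since 838 genes passed with all 9 libraries and 31 without T3 12. Nefm, the middle neurofilament subunit, rose by 0.77 (limma adjusted p = 0.00181), the glutaminase gene Gls2 by 0.73 (limma adjusted p = 0.0351) and the axonal adhesion gene Cntn2 by 0.46 (limma adjusted p = 0.0228). The clock output gene Dbp differed by 0.57 and did not pass (limma adjusted p = 0.0517). A position of hypoxia 9 could be given for the 6 of them with whole reads and an upward gap of at least 0.3, and these had a median of 0.55 with 3 of 6 past the midpoint. Hypoxia 9 stood at 0.62 of the gap for Gls2, 0.48 for Dbp, 0.36 for Nefm and 0.17 for Cntn2. For Nefm this was 183 ± 5.82 CPM with T3 (SD, n = 3), against 124 CPM in hypoxia 9 and 97.9 and 100.4 CPM in hypoxia 7 and 8. The astrocyte genes Kcnj10 and Slc1a3, the last of which is also one of the astrocyte markers above, had positions of 1.34 and 2.35, above the T3 mean.

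The other 3 that rose were the nuclear corepressor gene Hr, the transcription factor gene Klf9 and the retinoic acid hydroxylase gene Cyp26b1, and each has a hypoxia 9 value that is not a whole number of reads. As deposited, Hr was at 5.19 CPM, Klf9 at 24.8 CPM and Cyp26b1 at 30.3 CPM in hypoxia 9, positions of 0.07, 0.22 and 0.21. Adding 10 CPM to Hr gives 374 whole reads, and adding 20 CPM gives 1104 for Klf9 and 1240 for Cyp26b1. The levels would then be 15.2, 44.8 and 50.3 CPM, at positions 0.60, 0.85 and 0.67. The 6 members run from 0.29 to 1.24, a range so wide that lying inside it says little. Why the deposited values are off the read step was not tested. The members were picked for whole reads, so no value of theirs in any library was off the step. Over all genes, 35 rows held 142 values off the step, 71 of them in hypoxia with T3, 65 in hypoxia and 6 in normoxia.

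Against normoxia, this list had 11 genes that rose and 8 that fell with T3, and 6 that rose and 6 that fell in hypoxia, with medians of 0.05 and 0.10. Of all tested genes, 25.5% rose and 29.5% fell with T3, and 14.3% rose and 19.3% fell in hypoxia. With equal column sums the counts were 12 and 5 with T3, and 9 and 4 in hypoxia.

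Partners of Sema7a and Itga7 were read from a list of plexin C1, integrin and laminin genes, 14 of 15 of which were tested. With T3 against hypoxia none rose and 1 fell, beside 2.73% and 3.75% of all tested genes. The median was -0.14 over the 14 genes and -0.01 over all genes. The gene that fell was Plxnc1, the plexin that binds semaphorin 7A, with 58.9, 56.4 and 65.3 CPM in T3 libraries 11, 12 and 13, against 101, 112 and 72.4 CPM in hypoxia 7, 8 and 9, and 133, 98.0 and 94.1 CPM in normoxia 1, 2 and 3. Hypoxia 9 again stood on the T3 side of the hypoxia libraries, here as the lowest. The fall was 0.63 on the log2 scale (limma adjusted p = 0.0413), and with T3 against normoxia it was 0.82 (limma adjusted p = 0.00114).

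With T3 against normoxia, 2 of the 14 tested genes of the same list rose and 5 fell, beside 25.5% and 29.5% of all tested genes. The laminin chain gene Lamb2 rose by 1.16 and the integrin-linked kinase gene Ilk by 0.23, while the laminin chain gene Lama2 fell by 0.88 and the focal adhesion kinase gene Ptk2 by 0.83. In hypoxia against normoxia, Lamb2 rose by 1.08, Lama2 fell by 0.87 and Ptk2 fell by 0.54. Lamb2 was at 5.68 CPM in hypoxia 9, its highest library, against 1.64 and 3.45 CPM in hypoxia 7 and 8, and no longer passed in hypoxia without that library (limma adjusted p = 0.118). Itgb1, the beta subunit that pairs with integrin alpha 7, averaged 61.2 ± 9.46 CPM with T3, 68.0 ± 9.35 CPM in hypoxia and 68.6 ± 12.4 CPM in normoxia (SD, n = 3 each) and did not pass in any of the 3 comparisons.

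The hedgehog list had 14 of 19 genes tested besides Shh. With T3 against hypoxia none rose or fell, beside 2.73% and 3.75% of all tested genes, and the median over the 14 was -0.20. Ptch1, the receptor and itself a target of hedgehog signalling, averaged 10.4 ± 1.74 CPM with T3, 12.5 ± 1.52 CPM in hypoxia and 12.3 ± 0.425 CPM in normoxia (SD, n = 3 each). Its log2 difference between T3 and hypoxia was -0.24 (limma adjusted p = 0.242). Smo averaged 5.81 ± 0.914 CPM with T3, 6.51 ± 2.09 CPM in hypoxia and 4.07 ± 1.77 CPM in normoxia. Gli1, a target that marks hedgehog signalling, was at 0.0654 to 0.299 CPM with T3, 0 to 0.345 CPM in hypoxia and 0.0833 to 0.179 CPM in normoxia, and did not pass the filter. Against normoxia 4 of the 14 fell with T3 and none rose, beside 29.5% of all tested genes that fell and 25.5% that rose. Those that fell were the coreceptor gene Boc by 0.85, the hedgehog-binding gene Hhip by 0.72, Scube1 by 0.57 and Gpr161 by 0.57. In hypoxia Kif7 rose by 0.55, while Scube1 fell by 0.50, Hhip by 0.47 and Gpr161 by 0.40. Of all tested genes 14.3% rose and 19.3% fell in hypoxia. With equal column sums 1 of the 14 rose and 4 fell with T3, and 2 rose and 1 fell in hypoxia. Without hypoxia 9 none rose and 1 fell in hypoxia.

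Of the peroxisome list, 15 of 16 genes besides Abcd2 were tested. With T3 against hypoxia none rose or fell, beside 2.73% and 3.75% of all tested genes, and the median was -0.03. Abcd3, another transporter gene of the family, averaged 78.1 ± 1.22 CPM with T3, 76.3 ± 2.70 CPM in hypoxia and 74.8 ± 3.42 CPM in normoxia (SD, n = 3 each). It passed neither test against normoxia, except with equal column sums, where its difference of 0.17 passed in hypoxia (limma adjusted p = 0.0373) and with T3 (limma adjusted p = 0.0271).

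Of these 15 genes 3 rose with T3 over normoxia and 4 fell, beside 25.5% and 29.5% of all tested genes. The lipid elongase gene Elovl1 rose by 0.92, while Pex14 fell by 0.53 and Hsd17b4 by 0.46. In hypoxia 2 rose and 3 fell, beside 14.3% and 19.3% of all tested genes. With equal column sums, which move the median of all genes up by the shift given above, 6 rose and none fell. Without hypoxia 9 the counts were 2 and 1.

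Rasd2 was set beside genes of striatal neurons and its relative Rasd1, 10 of 14 of which were tested. With T3 against hypoxia none rose and 4 fell, beside 2.73% and 3.75% of all tested genes, with a median of -0.22 over the 10. Those that fell were Pde10a by 0.59, Meis2 by 0.50, Bcl11b by 0.44 and Foxp1 by 0.43. Against normoxia, in comparisons that share these libraries, Foxp1 fell by 1.17 with T3 and by 0.74 in hypoxia, and Meis2 by 1.11 with T3 and by 0.61 in hypoxia. Bcl11b did not pass in hypoxia against normoxia with equal column sums (limma adjusted p = 0.0729) or without hypoxia 9 (limma adjusted p = 0.0529). Ppp1r1b, which encodes the striatal phosphoprotein DARPP-32, rose with Rasd2 against normoxia, by 1.21 with T3 and by 1.09 in hypoxia. It had 21.5 ± 0.653 CPM with T3 and 19.8 ± 2.31 CPM in hypoxia, against 8.85 ± 2.06 CPM in normoxia (SD, n = 3 each). Rasd1 was at most 0.36 CPM in any library and did not pass the filter.

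Across the 9 libraries, the genes whose log2(CPM + 1) followed each member most closely were sought among all tested genes with whole reads. For Sema7a these were Cluh, Mrps10 and Rrp12, with Pearson's r of 0.96, 0.94 and 0.93. Abcd2 was followed by Tgfb3 at 0.99, Peo1 at 0.98 and Mrps16 at 0.98, and Shh by Peo1 at 0.98, Gpr133 at 0.97 and Tgfb3 at 0.97. For Itga7 they were Galk1 at 0.98, Ezr at 0.98 and Nkain4 at 0.97. Flywch2 had Podxl2 at 0.99, Cops4 at 0.98 and Cltb at 0.98, and Rasd2 had Pkm, Atg9b and Sulf2, each at 0.99. These values describe 9 libraries that fall into 3 groups, and the genes were picked as the highest of all those searched.

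Among the members, Abcd2 and Shh followed each other most closely, with r = 0.96. Abcd2, Shh, Itga7, Flywch2 and Rasd2 had r of 0.81 to 0.96 among themselves, whereas Sema7a had r of 0.07 with Rasd2 to 0.55 with Shh. All members were picked as higher with T3 than in hypoxia, and those libraries enter r. High values among the members were thus in part set in advance, and nothing is read from them. Tgfb3, which is among the nearest genes to both Abcd2 and Shh, was at 6.35 to 6.54 CPM in the T3 libraries, against 6.05 CPM in hypoxia 9 and 4.63 and 3.72 CPM in hypoxia 7 and 8. Rrp12, a neighbour of Sema7a in this ranking, was at 50.7 to 58.4 CPM in the T3 libraries, against 55.5 CPM in hypoxia 9 and 39.7 and 38.7 CPM in hypoxia 7 and 8.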

How the data were processed

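Polyadenylated RNA of 9 libraries was sequenced with a stranded kit, per the labels' protocols. The deposited table holds, per gene symbol, a signal scaled by the authors (CPM after TMM normalization), made with Bowtie2 2.1.0, RSEM 1.2.15, edgeR and mm10, per the submitters' processing notes; the annotation was not given in the sources used here. Read counts were recovered from the value of 1 read in each column (within 0.01 reads). Columns were assigned to groups by their headers. An unnamed column (1 in all) was not used.

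limma 3.58.1 in R 4.3.3 (lmFit, eBayes with trend) was run two-sided on log2(CPM + 1) over all 9 libraries, leaving 6 residual degrees of freedom. P-values were Benjamini-Hochberg adjusted over 12923 genes (threshold 0.05), and the procedure was tested on simulated data. The difference of hypoxia with T3 against hypoxia chose the members, so they get no p there. edgeR 4.0.16 and DESeq2 1.42.0 ran on recovered reads as alternatives, beside other pseudocounts, filters and scalings, 2-group fits and leaving out each library. The members and lists were chosen with earlier results of these data known. Named genes were the members, the 3 genes most correlated with each, up to 4 members of each list past the threshold per comparison by adjusted p, and Ptch1, Gli1, Smo, Itgb1, Plxnc1, Abcd3, Rasd1, Hr, Klf9, Nefm and Dbp; Slc1a3, Kcnj10 and Lamb2 in hypoxia 9, and marker genes, were named after their values were seen. Some genes that this rule names are not reported here. The Hr, Klf9 and Cyp26b1 whole-read values, the positions of hypoxia 7 and 8 and the neuronal sum without Tubb3 were added after seeing the data. Coordinates are from GENCODE on GRCm38 and promoters from RefSeq.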

Additional observations from a re-analysis of the deposited data

How the results depend on the processing

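With T3 against hypoxia, 838 genes passed the test, and this count moved with the processing: 172 passed with no filter on low values, 275 with only the 2 groups fitted and 1728 with DESeq2. Leaving out 1 library gave 31 to 1817, with 31 without T3 12, 43 without hypoxia 8, 46 without T3 11, 88 without hypoxia 7, 455 without normoxia 2 and 1817 without T3 13; the cause was not tested. In hypoxia against normoxia 4343 passed (2959 to 4372 leaving out 1 library) and with T3 against normoxia 7117 (5957 to 7120). Equal column sums turned the split of higher and lower calls in hypoxia, to 3973 and 1232 in place of 1846 and 2497, and with T3 against normoxia to 4527 and 2856 in place of 3300 and 3817. With T3 against hypoxia the split was 284 and 697 in place of 353 and 485. The median position of hypoxia 9, 0.80, became -0.47 with hypoxia 7 (-0.39 without Itga7, whose gap is near 0) and -0.55 with hypoxia 8 in its place. In both swaps hypoxia 9 entered the zero point, so these values are no independent check. Over the 6 members no direction turned under any alternative run. In the refits of hypoxia against normoxia 91 member values kept their side of the threshold, 6 gained a call and 11 lost one, all 11 for Itga7. With T3 against normoxia 106 kept it, and 2, both of Sema7a, gained a call. The range of the position over scalings and pseudocounts was widest for Itga7, 1.18 to 1.30. Itga7, at 5 reads in hypoxia 7, is where depth limits most. No paired analysis was possible because the header numbers 7 to 9 and 11 to 13 have no counterpart among the replicate numbers in the titles.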
